A study of Mus musculus with 6 samples.

Results

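The genes described here are 10 mouse orthologs of genes tied to human mantle cell lymphoma or to its transcription factor SOX11, with the driver genes left out: Hmgb3, Setmar, Hdgfl3, Cdk2ap1, Cnn3, Dbn1, Farp1, Ptk2, Pon2 and Pdgfa. They were found by Ensembl gene ID among the 56884 genes of the count table, and 10 of 10 passed the filter on low counts. RNA was sequenced from 3 samples of B cells selected from wild-type spleens (WT A, B and C, BL6 in the column names) and from 3 unselected spleens of passage 1 (P1 replicates 3, 4 and 5) of the adoptive transfer form of the Eµ-SOX11CCND1 mouse model. The labels give no age, sex or recipient strain, and no treatment beyond the transfer. The model is named for Eµ, the immunoglobulin heavy chain enhancer that directs a transgene to B cells, and for the SOX11 and CCND1 genes. A whole spleen also holds the recipient's own cells, so the P1 libraries mix transferred and host RNA.

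Mantle cell lymphoma is a cancer of mature B cells in which a translocation places the cell cycle gene CCND1 under an immunoglobulin enhancer. Conventional, aggressive cases also express SOX11, a SoxC transcription factor that normal B cells lack, while a leukaemic non-nodal form usually does not. Several of the 10 genes are known from human expression signatures that mark the SOX11-positive form, and PDGFA and PTK2 are known as SOX11 targets in human lymphoma cells, tied to vessel growth and to adhesion. The groups here set wild-type B cells against whole P1 spleens, with no SOX11-negative tumour and no purified tumour cells. They show the levels of these genes in each group and cannot decide whether the mouse tumour carries the human signature.

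Library totals were 12196413 to 14266132 counts in WT and 7510327 to 10363396 in P1. Sox11 had 0 to 1 count in WT libraries and 956 to 5584 in P1 libraries. The species of the SOX11 and CCND1 transgenes is not given in the sources used here, so counts at the mouse genes may undercount them. The TMM-normalised counts of Sox11 scaled to library size (CPM) were 82.2, 941 and 648 in P1 replicates 3, 4 and 5. TMM factors of these libraries were 1.13, 0.578 and 1.086. Ighv1-69 was the most counted heavy chain V gene in each P1 library, at 55.5%, 92.6% and 96.8% of Ighv counts. P1 replicate 4 stood apart by its mitochondrial share of 17.36% of counts, against 0.09% to 3.4% in the other 5 libraries. Pan-B cell markers, 17 genes, summed to 11060 to 11760 CPM in WT and to 1434 to 3936 CPM in P1. The labels name a separate mouse for each library and do not say whether the P1 mice received cells of 1 donor.

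The upstream sequences of the 2 genes that passed the test are shown first, since these genes moved in opposite directions. Promoter windows from RefSeq (build GRCm38.p6, 250 bases before to 50 after a transcript start) were found for 8 of the 10 genes, in 9 windows, with 2 for Pdgfa. Each line gives the last 150 bases before the start, 5′ to 3′ on the plus strand. Capitals mark the letters CCAAT or their reverse complement ATTGG.
Hmgb3 (chrX:71555767-71555916): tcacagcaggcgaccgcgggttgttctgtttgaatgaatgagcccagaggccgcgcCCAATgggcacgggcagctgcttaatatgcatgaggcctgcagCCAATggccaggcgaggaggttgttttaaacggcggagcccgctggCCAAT
Cnn3 (chr3:121426391-121426540): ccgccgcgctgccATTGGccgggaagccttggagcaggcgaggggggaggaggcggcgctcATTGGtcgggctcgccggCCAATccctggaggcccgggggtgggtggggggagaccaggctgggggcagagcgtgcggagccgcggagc
Both stretches held 3 copies of CCAAT, counted over both strands, a motif chosen after these sequences were seen. In all, 2.79% of the 32851 windows in the table held 3 or more copies in their 250 bases before the start. At least 1 copy was found in 4 of the 9 windows of these genes and in 33.8% of all windows.

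SOX proteins bind cores of the kind AACAAT and ACAAAG, which were searched on both strands and counted separately. AACAAT was found in 10.7% and ACAAAG in 18.7% of all windows. Of the 9 windows of these genes, 1 held either motif. It lies in Hdgfl3, from base 25 after the start, and is shown with 10 bases on each side and the motif in capitals (minus strand, GRCm38.p6).
Hdgfl3 (chr7:81934420-81934445): cgcgcgcgagAACAATaataagatcg
By GC content, 8 of the 9 windows were above the 52.7% of the median window, from 61.3% in Hmgb3 to 78.3% in Cnn3, with Setmar at 48.7%. A missing match says only that these letters are not in the window.

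Of the 10 genes, Hmgb3 rose and Cnn3 fell in P1 spleen, and 8 did not pass the test (edgeR quasi-likelihood test, Benjamini-Hochberg over 15462 genes). Among all tested genes 27.9% were called, 16.9% higher and 11.0% lower, against 20.0% of these 10. The P1 libraries were all above the WT libraries for 5 genes (Hmgb3, Farp1, Pon2, Cdk2ap1 and Pdgfa) and all below for Cnn3. Such separation of the groups, in either direction, was found in 47.8% of tested genes (22.9% with P1 higher). The median log2 fold change of the 10 genes was 0.89, against 0.02 over all genes tested. Selection of B cells, genotype and tumour differ between the groups at once and cannot be told apart, and in whole spleen fewer B cells and less RNA per B cell cannot be told apart either.

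**Figure D1:**
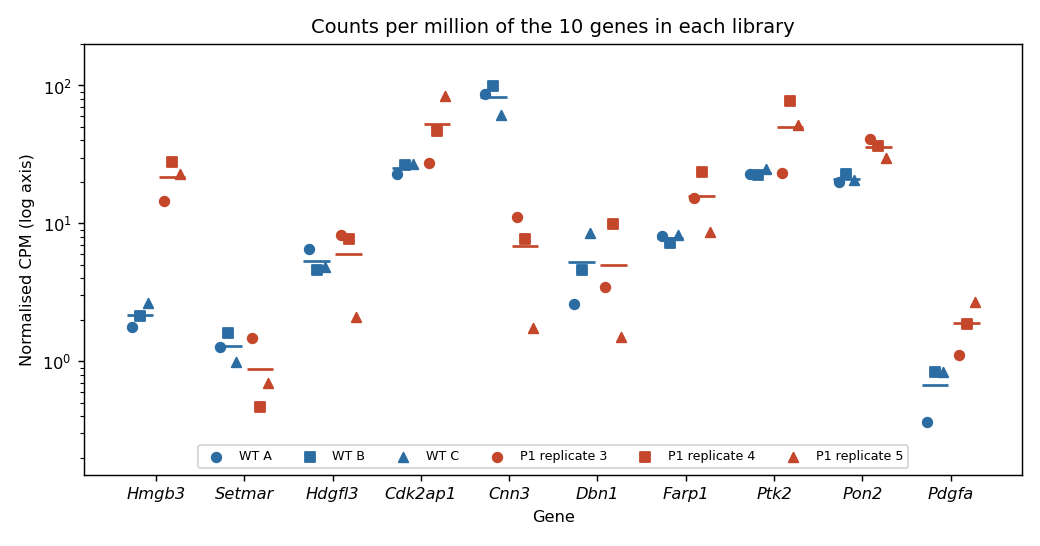
Normalised CPM (log axis) of each of the 10 genes in the 3 WT B cell libraries (blue) and 3 P1 spleen libraries (red); horizontal lines are group means. The groups are farthest apart for Hmgb3, with 1.76 to 2.65 CPM in WT and 14.5 to 27.8 in P1, and for Cnn3, with 60.7 to 99.2 in WT and 1.74 to 11.1 in P1.

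Among the chromatin proteins, Hmgb3 (ENSMUSG00000015217.12, chromosome X, 70599524 to 70604282, GRCm39, plus strand) gave the clearest rise. It is an HMG-box protein that bends DNA and is known from haematopoietic stem and progenitor cells. Its counts were 29, 33 and 35 in WT libraries A to C and 169, 120 and 196 in P1 replicates 3, 4 and 5. In normalised CPM these were 1.76, 2.12 and 2.65 against 14.5, 27.8 and 22.7. Every P1 library was above every WT library. Within the groups the highest library was 1.51 times the lowest in WT and 1.91 times the lowest in P1. The log2 fold change was 3.31 ± 0.39 (standard error, adjusted p = 0.000909, edgeR), which is 9.92-fold, with a 95% interval of 2.42 to 4.2 on the log2 scale. The call held without any single library (3.11 to 3.53).

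Of the other HMG-box genes, Hmgb2 rose as well and Hmgb1 did not pass the test. Hmgb2, an HMG-box protein abundant in dividing cells, rose by 2.25 ± 0.33 (adjusted p = 0.00201, edgeR), from 53.8 ± 4.44 to 256 ± 95 CPM (mean ± SD, n = 3). Hmgb1, the broadly expressed member, was at -0.01 (95% interval -0.58 to 0.56), and at -0.07 from the median of all genes under B-cell-centred scaling. Hmga1, an AT-hook protein, rose by 1.27 ± 0.31 (adjusted p = 0.0176), and did not pass with library totals (1.00, adjusted p = 0.136). Of the 7 tested HMG genes other than Hmgb3, 2 were higher and 0 lower (16.9% and 11.0% over all tested genes), and their median was 0.71. At an unadjusted p under 0.05, Hmgn2 was also higher (0.71, adjusted p = 0.0659). Dividing cell markers were higher as well, in 10 of 10 genes, and their part in the values of Hmgb2 and Hmgb3 was not tested.

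Within the Hmgb1, Hmgb2 and Hmgb3 family the share of Hmgb3 can be read without any scaling between libraries. By length-scaled level (RPKM, CPM divided by gene length in kilobases) it was 2.60%, 3.18% and 3.85% in WT libraries A to C and 8.78%, 8.79% and 9.84% in P1 replicates 3, 4 and 5. The P1 shares were all above the WT shares and close to each other, although these libraries differed strongly in other respects. The difference was 5.93 percentage points (exact permutation p = 0.1, two-sided, n = 3 per group; no smaller p is possible with 3 against 3; 0.3 after adjustment over 9 family shares).

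Setmar (chromosome 6, 108042006 to 108054083, plus strand) encodes a SET-domain histone methyltransferase that in primates is fused to a transposase. Its counts were 21, 25 and 13 in WT libraries A to C and 17, 2 and 6 in P1 replicates 3, 4 and 5. This gave 1.27, 1.61 and 0.98 CPM against 1.46, 0.46 and 0.70. The groups overlapped, with P1 replicate 3 inside the WT range. The log2 fold change was -0.46 ± 0.54 (adjusted p = 0.566, edgeR; interval -1.69 to 0.77).

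Of 8 other tested genes of the SET-domain methyltransferase list, 2 were higher and 1 lower (16.9% and 11.0% over all tested genes). Their median was -0.20. Nsd2, an H3K36 methyltransferase altered in human mantle cell lymphoma, was at 63.3, 71.9 and 57.4 CPM in WT and 211, 273 and 207 in P1, with no overlap. Smyd2, a lysine methyltransferase, rose by 3.23 ± 0.53 (adjusted p = 0.00324, edgeR), and Setd2 fell by 0.79 on the log2 scale (adjusted p = 0.042), and it did not pass with library totals (-1.06, adjusted p = 0.0893). Scaling to B cell markers put Setd2 at 2.12, which is -0.75 from the median of all genes.

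Hdgfl3 (chromosome 7, 81530999 to 81584221, minus strand), a PWWP-domain relative of hepatoma-derived growth factor, had 6.54, 4.62 and 4.84 CPM in WT libraries A to C. In P1 replicates 3, 4 and 5 it had 8.17, 7.64 and 2.09 CPM. Replicates 3 and 4 were above every WT library and replicate 5 was below them. The log2 fold change was 0.15 ± 0.53 (adjusted p = 0.858, edgeR; interval -1.07 to 1.38). Its exons share 1220 bases with the opposite-strand gene Tm6sf1, which had 1032 to 1778 counts in WT and 100 to 665 in P1, and without a stated counting strand the reads of the pair cannot be told apart there. Hdgf, the founding member, rose by 1.31 ± 0.33 (adjusted p = 0.0191), to 334 ± 129 CPM from 134 ± 13.3, and did not pass with library totals (1.08, adjusted p = 0.113). The share of Hdgfl3 in the summed RPKM of Hdgf, Hdgfl2, Hdgfl3 and Psip1 was at most 0.923% in any library.

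Cdk2ap1 (chromosome 5, 124483480 to 124501145, minus strand), a CDK2-binding protein and subunit of the NuRD chromatin remodelling complex, had 22.9, 26.4 and 26.9 CPM in WT libraries A to C. In P1 replicates 3, 4 and 5 it had 27.3, 46.5 and 84.0 CPM. The groups did not overlap, but replicate 3 lay just above the WT range while replicate 5 was 3.08 times replicate 3. The log2 fold change of 1.05 ± 0.39 did not pass (adjusted p = 0.0813, edgeR; interval 0.15 to 1.95), and it passed without P1 replicate 3 (1.36, adjusted p = 0.0147). Its share of the summed RPKM of Cdk2ap1 and Cdk2ap2 was 25.7% to 28% in WT and 21.2%, 54.3% and 61.7% in P1.

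Of the 14 other NuRD genes tested, 0 were higher and 0 lower (edgeR, 16.9% and 11.0% over all tested genes), with a median of -0.06. At an unadjusted p under 0.05, Mta1 was higher (0.73, adjusted p = 0.0753) and Gatad2b lower (-0.59, adjusted p = 0.122). Chd4, the ATPase of the complex and its most abundant transcript, was at 754 ± 16.7 CPM in WT and 804 ± 305 in P1. DESeq2 called 1 of the 14 higher (Mta1, adjusted p = 0.0494) and 0 lower.

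Among the cytoskeletal genes, Cnn3 (ENSMUSG00000053931.12, chromosome 3, 121220146 to 121251856, GRCm39, plus strand) fell furthest. It encodes acidic calponin, an actin-binding protein, and its human ortholog is on the list of genes high in SOX11-positive lymphoma. Its counts were 1434, 1545 and 803 in WT libraries A to C and 129, 33 and 15 in P1 replicates 3, 4 and 5. In CPM these were 86.9, 99.2 and 60.7 against 11.1, 7.64 and 1.74. The groups were far apart, and within P1 the highest library was 6.38 times the lowest. The change on the log2 scale was -3.59 ± 0.59 (adjusted p = 0.00322, edgeR; interval -4.94 to -2.23), a level 12-fold lower. The call held without any single library (-4.24 to -3.13).

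B cell markers were lower as well between the groups, in 15 of 17 genes with 0 higher, and their median was -2.66. Within P1 their sum was 1935, 1434 and 3936 CPM in replicates 3, 4 and 5. Replicate 5 was thus highest in these markers and lowest in Cnn3. When libraries were scaled to equal levels of those 17 markers, which shifted the middle of all fold changes from 0.02 to 2.86 (log2), Cnn3 was at -0.60 (adjusted p = 0.457, edgeR) and no longer called. Relative to the median of all genes it was at -3.46 under that scaling. Taking off the median largely undoes the scaling, so the value of -3.46 is no test of B cell content. Within the calponins, Cnn3 took 15.5%, 15.8% and 10.2% of the summed RPKM of Cnn1, Cnn2 and Cnn3 in WT. In P1 replicates 3, 4 and 5 the share was 3.16%, 8.86% and 1.59%, below every WT library (exact permutation p = 0.1, two-sided, n = 3 per group; 0.3 adjusted). Cnn2, the calponin abundant in blood cells, was at 416 ± 27.5 and 142 ± 116 CPM and did not pass (-1.55, adjusted p = 0.0611, edgeR). Cnn2 passed with DESeq2 (-1.55, adjusted p = 0.014), and its P1 libraries were all below the WT libraries. The part of B cell content in the fall of Cnn3 was not tested. Its exons share 538 bases with the opposite-strand gene Gm42928, which had 35 to 109 counts in WT and 1 to 7 in P1.

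Dbn1 (chromosome 13, 55621242 to 55635924, minus strand) encodes drebrin, an actin-binding protein known best from neurons and a SOX11-linked gene in human lymphoma. It had 2.61, 4.56 and 8.54 CPM in WT libraries A to C and 3.44, 9.95 and 1.51 in P1 replicates 3, 4 and 5. The ranges overlapped fully, and P1 libraries differed 6.60-fold among themselves and WT libraries 3.28-fold. Its log2 fold change was -0.12 ± 0.72 (adjusted p = 0.919, edgeR), with an interval of -1.77 to 1.53 that leaves its direction unknown. Dbnl, the drebrin-like gene of blood cells, was far more abundant (260 ± 26.1 CPM in WT, 185 ± 16.1 in P1; adjusted p = 0.177), and Dbn1 was at most 3.01% of the pair's RPKM.

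Farp1 (chromosome 14, 121272612 to 121521156, plus strand), a FERM-domain protein, had 8.06, 7.19 and 8.16 CPM in WT libraries A to C. In P1 replicates 3, 4 and 5 it had 15.2, 23.6 and 8.70 CPM. All 3 P1 libraries were above WT, though replicate 5 was barely so. The change on the log2 scale of 1.01 ± 0.40 did not pass (adjusted p = 0.0951, edgeR; interval 0.10 to 1.93), and it passed without P1 replicate 5 (1.28, adjusted p = 0.0182). Its relative Farp2 was at 1.29 and did not pass (adjusted p = 0.0618, edgeR), and it passed with DESeq2 (1.31, adjusted p = 0.0229). Farp1 took 54.1%, 49.6% and 60.8% of the summed RPKM of the pair in WT and 65.8%, 60.2% and 26.5% in P1, which overlap.

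Ptk2 (chromosome 15, 73076951 to 73295129, minus strand) encodes focal adhesion kinase, which relays signals from integrins. It had 22.7, 22.5 and 24.6 CPM in WT libraries A to C, the tightest WT values of the 10 genes. In P1 replicates 3, 4 and 5 it had 23.0, 76.6 and 51.3 CPM. Replicate 3, the P1 library lowest in Sox11, lay inside the WT range, and the other P1 libraries were more than 2-fold above it. Its log2 fold change of 1.11 ± 0.41 did not pass (adjusted p = 0.0755, edgeR; interval 0.18 to 2.03). It passed without P1 replicate 3 (1.45, adjusted p = 0.00634) and with DESeq2 (1.14, adjusted p = 0.0463).

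Ptk2b, the kinase PYK2 that prevails in normal B cells, fell by 2.00 on the log2 scale (± 0.37, adjusted p = 0.00513, edgeR), from 613 ± 21.7 to 153 ± 69.1 CPM. Under B-cell-centred scaling Ptk2b was at 0.83 (adjusted p = 0.162), which is -2.03 from the median of all genes under that scaling. The share of Ptk2 in the summed RPKM of the pair was 2.34%, 2.17% and 2.47% in WT and 5.84%, 29.7% and 22.1% in P1 replicates 3, 4 and 5. Every P1 share was above every WT share, including that of replicate 3 (exact permutation p = 0.1, two-sided, n = 3 per group; 0.3 adjusted).

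**Figure D2:**
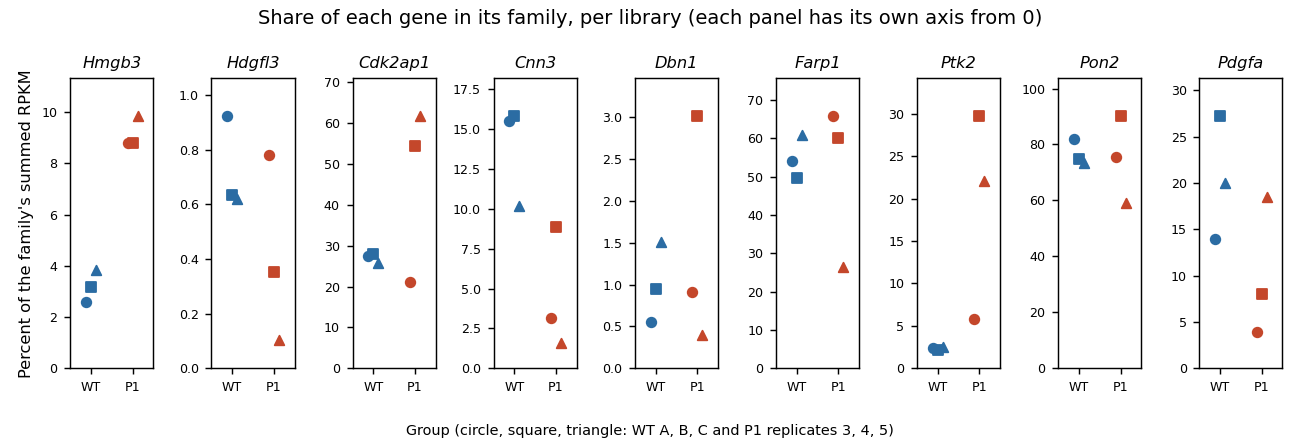
Percent of a family's summed RPKM taken by each of 9 genes in every library, with WT in blue and P1 in red and a separate axis from 0 in each panel. Hmgb3 (2.60% to 3.85% in WT, 8.78% to 9.84% in P1), Cnn3 and Ptk2 show no overlap between the groups, and the other 6 panels overlap.

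The adhesion genes around Ptk2 were in part higher. Of 18 other tested genes of this list 6 were higher and 2 lower (16.9% and 11.0% over all tested genes), with a median of 0.38. Itgb1, the integrin beta chain that signals through focal adhesion kinase, rose by 2.42 ± 0.35 (adjusted p = 0.00192, edgeR). Its CPM were 198, 272 and 377 in P1 against 41.6, 47.1 and 69.2 in WT. Vcl, encoding vinculin, rose by 1.84 ± 0.31 (adjusted p = 0.00347). Tln2, a talin scarce in blood cells, rose to 2.68 ± 0.553 CPM from 0.115 ± 0.101 (adjusted p = 0.00334), while Tln1, the abundant talin, was at -0.05 (adjusted p = 0.947). Cxcr4, the chemokine receptor that in human lymphoma cells is tied to SOX11 together with PTK2, fell by 2.73 on the log2 scale (adjusted p = 0.00457, edgeR) with -0.02 when B cell markers were levelled, which is -2.88 from the median of all genes.

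Pon2 (chromosome 6, 5264147 to 5298455, minus strand) encodes paraoxonase 2, an intracellular lactonase that limits oxidative stress. It had 20.0, 22.7 and 20.6 CPM in WT libraries A to C and 41.2, 36.3 and 29.8 in P1 replicates 3, 4 and 5. All P1 libraries were above all WT libraries, and the spread within P1 was the smallest of the 10 genes, at 1.38-fold. The change on the log2 scale of 0.76 ± 0.25 narrowly missed the threshold (adjusted p = 0.0507, edgeR; interval 0.20 to 1.33). It was called with DESeq2 (adjusted p = 0.0145), with DESeq2-type size factors in edgeR (0.0439), without robust dispersion (0.0486) and without P1 replicate 5 (0.0211). With library totals alone the value was 0.50 (adjusted p = 0.481). Of its relatives, Pon3 was at 1.01 (adjusted p = 0.240) and Pon1 was too low to test. Pon2 overlaps the opposite-strand gene Gm44424 over 680 exonic bases, which had 10 to 30 counts in any library.

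Pdgfa (chromosome 5, 138961769 to 138983125, minus strand) encodes the A chain of platelet-derived growth factor, a ligand for receptors on stromal cells. Its counts were the lowest of the 10 genes in WT, at 6, 13 and 11, and were 13, 8 and 23 in P1 replicates 3, 4 and 5. In CPM these were 0.36, 0.83 and 0.83 against 1.12, 1.85 and 2.67. The groups did not overlap in CPM, but the counts themselves did. Its log2 fold change was 1.46 ± 0.56 (adjusted p = 0.0862, edgeR; interval 0.18 to 2.73). The opposite-strand gene 6330403L08Rik shares 813 exonic bases with it and had 6 to 12 counts in every library, so the origin of reads there is uncertain.

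Other PDGF genes were higher: of 3 tested besides Pdgfa, 3 were higher and 0 lower (16.9% and 11.0% over all tested genes). Their median was 3.41. Pdgfb, the B chain, rose by 2.87 ± 0.39 (adjusted p = 0.00156, edgeR), from 2.97, 2.50 and 3.78 CPM in WT to 31.3, 21.5 and 14.8 in P1. Pdgfc rose by 3.41 ± 1.03 (adjusted p = 0.0396). The receptor Pdgfrb, a marker of perivascular stroma that is also in the fibroblast marker list, rose by 5.18 ± 0.96 (adjusted p = 0.00524). It had 2.15, 10.2 and 1.51 CPM in P1. The other receptor, Pdgfra, was too low to test, at 0.172, 11.6 and 0.232 CPM in P1, and P1 replicate 4 alone held most of its counts. Fibroblast markers were higher too (4 of 5 tested, Pdgfrb among the 4), and their part was not tested. Within P1 their sum and Pdgfrb were highest in replicate 4, while Pdgfb and Pdgfc were highest in replicate 3. Among the ligands Pdgfa took 14.0%, 27.2% and 20.0% of the summed RPKM in WT and 3.86%, 8.0% and 18.5% in P1, which overlap (exact permutation p = 0.2, two-sided, n = 3 per group; 0.45 adjusted).

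Ranked by mean RPKM, Cnn3 was the highest of the 10 genes in WT B cells at 27.1 ± 6.48 and Cdk2ap1 followed at 12.2 ± 1.05, with ranges apart. Pon2 (2.87), Ptk2 (1.97) and Farp1 (1.41) followed, also apart from each other. Farp1, Dbn1, Hmgb3, Setmar and Hdgfl3 overlapped with their neighbours in this order, and Pdgfa was lowest at 0.217 ± 0.0869. In P1 spleen Cdk2ap1 led at 25.3 ± 13.9 RPKM, followed by Hmgb3 at 9.70 ± 2.99, and their ranges were apart. Pon2 followed at 4.87 ± 0.778, below the lowest Hmgb3 library. From Pon2 down to Setmar, the lowest at 0.495 ± 0.296, each gene overlapped with the next. Hmgb3 went from rank 7 to rank 2 and Cnn3 from rank 1 to rank 6, at 2.25 ± 1.56 RPKM.

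**Figure D3:**
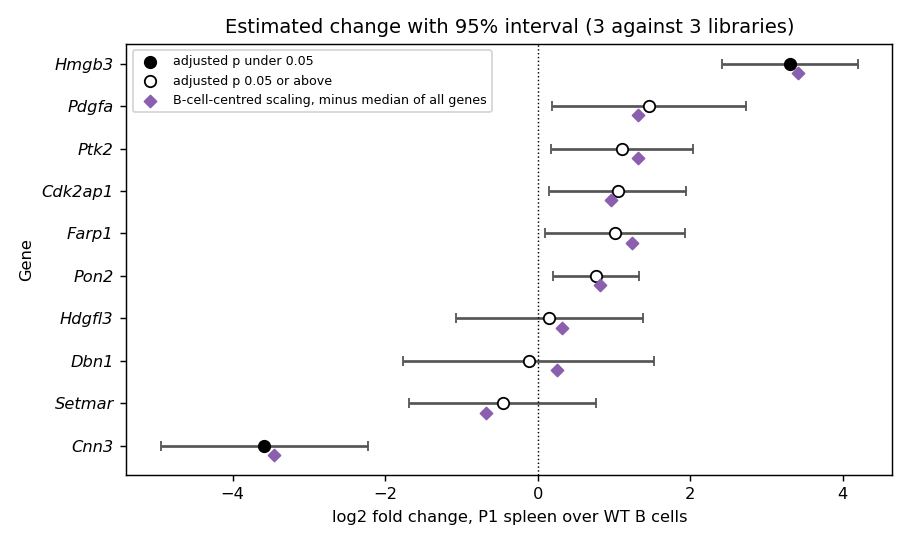
Log2 fold change (P1 spleen over WT B cells) of the 10 genes with 95% intervals; filled points have an adjusted p under 0.05, and purple diamonds give the value under B-cell-centred scaling after the median of all genes is taken off. Hmgb3 (3.31) and Cnn3 (-3.59) lie farthest from 0, and 5 uncalled genes have intervals above 0. Taking off the median largely undoes the B-cell-centred scaling, so the closeness of diamonds and points is no test of B cell content.

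Scaling to equal B cell markers called 9 of the 10 genes higher and 0 lower, but it called 13771 of all genes higher and 113 lower. Relative to the median of all genes under that scaling, Hmgb3 was at 3.42, Ptk2 at 1.32, Pdgfa at 1.31 and Farp1 at 1.24, and Cdk2ap1 and Pon2 at 0.96 and 0.82. Hdgfl3 and Dbn1 were at 0.32 and 0.25, and Setmar was at -0.68. Since taking off the median largely undoes that scaling, these values lie near those with TMM and are no test of B cell content.

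The 3 P1 libraries ordered the genes differently. In TMM-normalised CPM, Hmgb3 and Ptk2 had the same order as Sox11, lowest in replicate 3 and highest in replicate 4. Cdk2ap1 and Pdgfa had the order of Ccnd1, lowest in replicate 3 and highest in replicate 5. Cnn3, Pon2 and Hdgfl3 were highest in replicate 3 and lowest in replicate 5, and Setmar was highest in 3 and lowest in 4. Dbn1 and Farp1 were lowest in replicate 5 and highest in 4, as was Mki67. The other dividing cell markers did not have that order. Top2a was highest in replicate 3, at 489, 349 and 341 CPM in replicates 3, 4 and 5. Some of these orders depend on the scaling, since the TMM factor was 0.578 in replicate 4 against 1.13 and 1.086 in replicates 3 and 5. Per library total without that factor, Hmgb3, Ptk2 and Sox11 were highest in replicate 5 and Farp1 in replicate 3. With 3 libraries these orders are a description only.

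Markers of other cell types differed between the groups and among the P1 libraries. Red cell precursor markers summed to 96.6 to 120.4 CPM in WT and to 33090, 194600 and 6403 CPM in P1 replicates 3, 4 and 5, with 10 of 10 genes higher. Neutrophil markers went from 4.05 to 10.4 CPM in WT to 7394, 1017 and 2497 CPM (10 of 10 higher), and T cell markers from 9.89 to 20.5 CPM to 607, 222 and 271 CPM (10 of 10 higher). Dividing cell markers summed to 207 to 269 CPM in WT and to 3240, 5015 and 2360 CPM in P1 (10 of 10 higher).

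Fibroblast markers were low throughout: they summed to 0.848 to 1.86 CPM in WT and to 20.6, 71.5 and 10.7 CPM in P1, with 4 of 5 tested genes higher and Lum at 0 in all libraries. Endothelial markers had 3 higher and 1 lower of 6 tested, and Emcn was at 0 in WT. They summed to 269 to 327 CPM in WT and 86.8 to 412 CPM in P1. Most of the WT sum was Pecam1, the 1 lower gene, at 259 to 310 CPM in WT and 74.7 to 105 in P1. Platelet markers had 0 called of 9 by edgeR, 0 by DESeq2 and 0 at an unadjusted p under 0.05 ( 15.8 to 94.1 CPM in WT, 39.2 to 114 in P1), and Gp1bb was at 0 in all libraries. Monocyte and macrophage markers had 2 of 10 higher (239 to 603 and 582 to 2526 CPM). In TMM-normalised CPM, P1 replicate 4 had the highest sums of red cell, fibroblast, endothelial and dividing cell markers. Mki67 alone made up 3824 of its 5015 CPM of dividing cell markers. On that scale, where its TMM factor was 0.578, replicate 4 was also the highest P1 library for Hmgb3, Ptk2, Farp1 and Dbn1. The part of these cells in the values of the 10 genes was not tested.

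**Figure D4:**
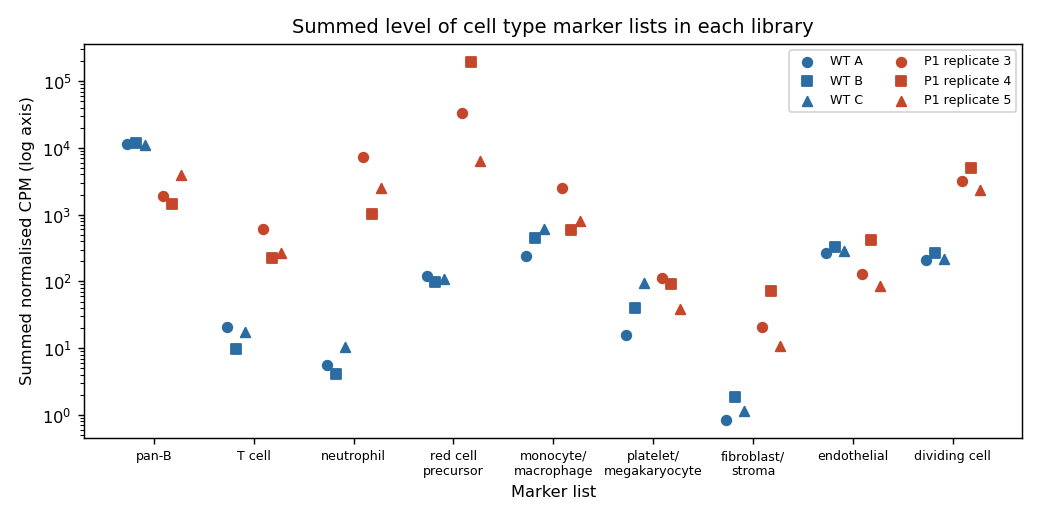
Summed normalised CPM (log axis) of 9 marker lists in each library, WT in blue and P1 in red. Pan-B markers are lower in every P1 library (1434 to 3936 CPM against 11060 to 11760), and red cell precursor, neutrophil, T cell, fibroblast and dividing cell markers are higher in every P1 library.

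Genes with the pattern most like each of the 10 were taken as the 3 nearest of 11656 genes by distance in centred log2 CPM over the 6 libraries. For Hmgb3 these were Chaf1a, Aurkb and Ripply3, at distances of 0.36, 0.36 and 0.39. For Cnn3 they were Patj, Gpr174 and Stap1, at 0.62, 0.84 and 0.84, all lower in P1 with the same order of the P1 libraries. Ptk2 was nearest to Zbtb17, Cyhr1 and Rin1 (0.15, 0.22 and 0.32), and Pon2 to Atp6v1e1, Eloa and Ctnna1 (0.16, 0.19 and 0.20). Cdk2ap1 was nearest to Slc25a4, Lgmn and Ahcy (0.19, 0.23 and 0.24), Farp1 to Gtpbp2, Clk3 and Tor1aip2 (0.22, 0.25 and 0.25), and Setmar to Scfd1, Sppl2a and Fbxo25 (0.19, 0.20 and 0.25). Pdgfa was nearest to Mrpl12, Zfp580 and Gcsh (0.35, 0.39 and 0.51), Dbn1 to Mrvi1, Erbb2 and Ptprn (0.53, 0.54 and 0.60), and Hdgfl3 to Col10a1, Galnt10 and Cdk20 (0.48, 0.51 and 0.51).

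A wider list of genes linked to SOX11 or to conventional mantle cell lymphoma was also mixed in direction. Of its 15 tested genes 6 were higher and 3 lower (16.9% and 11.0% over all tested genes), with a median of 0.22. Nsd2 rose by 1.84 ± 0.26 (adjusted p = 0.00163, edgeR), and Angpt2, an angiogenic ligand, rose by 2.48 ± 0.43 (adjusted p = 0.00393), from 2.36, 1.80 and 2.04 CPM to 16.3, 11.1 and 7.31. Pax5, the B lineage factor that SOX11 is known to keep on in human cells, fell by 2.21 on the log2 scale (± 0.45, adjusted p = 0.00749, edgeR) with 0.43 when B cell markers, of which it is 1, were levelled (-2.43 from the median of all genes). From the same human signature as several of the 10 genes, and named after their values were seen, Csnk1e and Lgals3bp rose by 1.33 ± 0.26 and 3.00 ± 0.57 (adjusted p = 0.0063 and 0.00596), while Rngtt was at 0.22 (adjusted p = 0.642). Csnk1e did not pass with library totals (1.06, adjusted p = 0.107).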

How the data were processed

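Raw counts per gene were deposited by the authors as 1 table for 6 libraries, and were made with Trim Galore, HISAT2 and featureCounts on GRCm39, per the submitters' processing notes; versions and the counting strand are not given in the sources used here. Libraries were directional and made from 50 ng of RNA, per the labels' protocols. WT columns carry animal codes that are in no label, so they were tied to the group only and are called A, B and C in column order (A and B share the first part of their code).

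Genes were filtered by group (filterByExpr), scaled by TMM and tested with edgeR 4.0.16 (quasi-likelihood, robust; limma 3.58.1, R 4.3.3), with an adjusted p of 0.05 as threshold. CPM and RPKM use TMM-scaled totals and the table's gene lengths. Summaries were made in Python 3.11.15 with pandas 2.3.3. Alternatives were DESeq2 1.42.0, other scalings (DESeq2-type size factors, library totals, and B-cell-centred scaling, which levels 17 pan-B genes), no filter, no robust dispersion and leaving out each library. Standard errors given with edgeR values were derived from the log2 fold change and its F statistic, and the 95% intervals from these. The intervals are for the estimated log2 fold change between groups and not for the spread of single libraries. Values given from the median of all genes under B-cell-centred scaling largely undo that scaling, and are no test of B cell content.

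The 10 genes and the gene lists were chosen with earlier results of these data known. In pathway lists of at most 10 genes any gene could be named, and in longer ones 3 genes (lowest adjusted p) plus the most highly counted 1. Ptk2b, named as the paralog of Ptk2, and the family shares and CCAAT search were chosen after values or sequences were seen. For Farp1 and Ptk2 no promoter is shown, and a protein comparison was not run. The list of partners of Farp1 is not reported here.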

Additional observations from a re-analysis of the deposited data

How the results depend on the processing

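Hmgb3 was called higher in all 12 alternatives and Cnn3 lower in all but B-cell-centred scaling. Genes among the 10 called higher numbered 1, against 2 with DESeq2-type size factors, 2 without robust dispersion, 3 with DESeq2, 9 with B-cell-centred scaling and 1 to 3 when a library was left out (3 without P1 replicate 3, 3 without P1 replicate 5); called lower were 1, and 0 with B-cell-centred scaling. Over all genes, B-cell-centred scaling gave 13771 higher and 113 lower, and leaving out a library gave 1644 to 3206 higher and 815 to 2313 lower, against 2618 and 1702. Of the libraries left out, those of WT gave the fewest calls (1715 higher and 827 lower with WT A omitted, 1644 higher and 815 lower with WT B omitted, 1991 higher and 979 lower with WT C omitted). Other pathway genes called higher numbered 19, with 72 under B-cell-centred scaling and 12 to 20 without a library. Those called lower numbered 5, with 0 under B-cell-centred scaling, 8 without the filter, 10 with DESeq2 and 3 to 10 without a library. Dbn1 was at 3.12 under B-cell-centred scaling, which is 0.25 from the median of all genes there (2.86), and ranged from -1.04 to 0.39 without a library, being positive without WT C (0.39), P1 replicate 3 (0.07) or P1 replicate 5 (0.29). Setmar was at 2.19 under B-cell-centred scaling, which is -0.68 from that median. Hdgfl3 was at -0.18 with library totals and ranged from -0.19 to 0.55 without a library, being negative without P1 replicate 3 (-0.19) or replicate 4 (-0.02). The promoter motif count was 1 and fell to 0 in the 250 bases before the start alone, since the match lies after it. The cause of the other changes was not tested. Standard errors ranged from 0.25 for Pon2 to 0.72 for Dbn1, and Setmar and Pdgfa had fewer than 30 counts in each library. No paired analysis was possible because the codes of the WT columns match no replicate number in the labels, and the groups share only 1 number there.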
